A study of Mus musculus with 18 samples.

Results

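Dbp, Tef, Hlf and Nfil3 are transcription factors that compete for the same DNA element, the D-box, and they were followed over the day in mouse distal colon. The 4 genes were taken as all probe sets whose platform gene symbol was exactly one of these names. This gave 8 of 45037 probe sets: 2 for Dbp, 3 for Tef, 2 for Hlf and 1 for Nfil3. A probe set is a group of short oligonucleotides on the array that reads one transcript, and its identifier is given below because the probe sets of a gene did not always behave alike; an s in it marks probes shared by several transcripts. Of these 8 probe sets, 6 passed the filter on low signal described with the processing, so 3 of the 4 genes were among the 12870 genes tested at 1 probe set per gene. Nfil3 was not, and was tested in a second fit of all 45037 probe sets without a filter.

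Total RNA of distal colon was hybridised to 18 Affymetrix arrays, 3 (a to c) at each of 6 collection times. The mice had been held in a cycle of 12 h light and 12 h dark and always had food, and 8am, 12pm, 4pm, 8pm, 12am and 4am lay 1, 5, 9, 13, 17 and 21 h after lights on. All groups were untreated, and strain, sex, age and the number of mice behind an array are not given in the sources used here. The p-values therefore measure the spread between these arrays, which may be technical.

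Dbp, Tef and Hlf are the PAR bZIP factors, basic leucine zipper proteins with a proline and acidic amino acid rich domain that bind D-boxes and activate transcription. Nfil3, also called E4BP4, is a basic leucine zipper protein without that domain that binds the same element and represses. In mouse liver, Dbp is switched on by the clock activators Clock and Arntl (Bmal1) through E-boxes, and Nfil3 is repressed by the nuclear receptors Nr1d1 and Nr1d2 (Rev-erb alpha and beta), so that activators and repressor of the D-box alternate over the day. In the gut, Nfil3 is known from lipid uptake by the small-intestinal epithelium and from the development of innate lymphoid cells.

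The promoters that carry letters of these clock elements are shown first, with the 300 bases from 250 before to 50 after an annotated start, on the gene's strand, from RefSeq on build GRCm38.p6. All 4 genes had a window in the RefSeq table, Tef with a pair of them. Capitals mark a match on either strand to the E-box CACGTG, to the E-box variant CACGTT, to the D-box TTATGTAA or TTACGTAA, or to the Rev-erb and Ror element TAGGTCA or TGGGTCA; none of these words overlapped in the windows shown. Both Tef windows hold an E-box, and the Nfil3 window holds a Rev-erb and Ror element on its opposite strand:
Tef, first start, chr15:81802423-81802722, plus strand: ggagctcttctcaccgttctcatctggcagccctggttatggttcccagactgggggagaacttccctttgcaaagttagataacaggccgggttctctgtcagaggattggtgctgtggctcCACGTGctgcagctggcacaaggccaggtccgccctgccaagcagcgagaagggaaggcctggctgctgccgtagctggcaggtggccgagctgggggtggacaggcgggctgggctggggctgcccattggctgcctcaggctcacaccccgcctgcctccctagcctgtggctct
Tef, second start, chr15:81811164-81811463, plus strand: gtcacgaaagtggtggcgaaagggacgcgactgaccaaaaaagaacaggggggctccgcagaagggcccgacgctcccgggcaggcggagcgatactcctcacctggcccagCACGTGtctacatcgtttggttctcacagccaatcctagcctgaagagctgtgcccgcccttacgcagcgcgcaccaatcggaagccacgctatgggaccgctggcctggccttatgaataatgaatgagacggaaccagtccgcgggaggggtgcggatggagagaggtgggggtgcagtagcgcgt
Nfil3, chr13:52980990-52981289, minus strand: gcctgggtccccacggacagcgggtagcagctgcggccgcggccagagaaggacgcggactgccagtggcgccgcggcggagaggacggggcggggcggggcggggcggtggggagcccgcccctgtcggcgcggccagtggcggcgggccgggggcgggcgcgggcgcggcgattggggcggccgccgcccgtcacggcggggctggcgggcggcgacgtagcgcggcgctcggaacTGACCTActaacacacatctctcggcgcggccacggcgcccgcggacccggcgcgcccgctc
The Tef E-boxes begin 127 and 138 bases before their starts, and the Nfil3 element begins 12 bases before its start. The windows of Dbp (chr7:45704997-45705296) and Hlf (chr11:90390868-90391167) hold none of the words searched. Among all 32851 windows of the table, 7.15% hold the E-box, 4.68% its variant, 1.06% a D-box and 6.45% a Rev-erb and Ror element. A match is a description of letters in a window and not evidence of binding.

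A further pair of windows is shown because these genes come back below, Per3 as a reported D-box target and Arntl as the gene with the highest correlation with Nfil3 among the clock genes:
Per3, chr4:151044616-151044915, minus strand: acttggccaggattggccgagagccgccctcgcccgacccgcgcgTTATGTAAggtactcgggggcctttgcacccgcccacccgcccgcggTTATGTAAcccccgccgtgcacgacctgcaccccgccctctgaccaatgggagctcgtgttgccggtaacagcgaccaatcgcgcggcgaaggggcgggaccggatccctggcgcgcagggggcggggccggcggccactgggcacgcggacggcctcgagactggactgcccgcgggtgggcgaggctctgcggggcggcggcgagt
Arntl, chr7:113207261-113207560, plus strand: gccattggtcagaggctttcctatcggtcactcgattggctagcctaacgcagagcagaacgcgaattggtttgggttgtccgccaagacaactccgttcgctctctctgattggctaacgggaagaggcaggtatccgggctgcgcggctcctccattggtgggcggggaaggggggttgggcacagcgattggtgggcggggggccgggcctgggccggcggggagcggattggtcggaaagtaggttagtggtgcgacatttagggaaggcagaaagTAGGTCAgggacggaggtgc
Per3 holds the D-box TTATGTAA at 205 and 158 bases before its start. In the window shown, Arntl holds a Rev-erb and Ror element 30 bases after its annotated gene start, near the end of the window. Arntl has another, overlapping window (chr7:113207215-113207514) whose start lies upstream and which holds none of the words searched. Of 27 genes of the D-box target list with a window, Per3 was the 1 gene with a D-box word in it, where 1.23% of all genes of the table have one. The E-box CACGTG stood in windows of 7 of these 27 genes, where 8.09% of all genes have one.

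By their Gapdh control, 3 arrays stood apart in RNA quality. Signal of its 3′ end was 34.3 times that of the 5′ end in 4pm b, 36.0 times in 4am a and 18.2 times in 4am b, and 0.746 to 2.33 times in the other 15 arrays. The cosines, the difference of 4pm and 4am, the peak differences and the correlations are given with and without them.

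Markers of the labelled tissue were present. The 8 colon epithelium markers were all tested, and their summed signal lay between 74345 and 117723 over the arrays. This sum was 95767 to 109507 at 8am and 98714 to 117723 at 8pm. At 12pm (75130 to 89734) and 4pm (74345 to 83988) it was lower, without overlap with 8am or 8pm. At 12am it was 87346 to 99443 and at 4am 78936 to 116192. The origin of these differences between times was not tested. Summed smooth muscle markers (6 of 6 tested) ranged between 20403 and 57003 at 4am, and between 33955 and 76612 at the other times, with the minimum in 4am a. Pancreatic enzymes (3 of 5 with a probe set) reached 66457 in 12am b against a minimum of 6199, and squamous markers reached 2971 and adipose markers 2697 in 4am a. B and plasma cell markers ranged between 3565 and 14919, and markers of enteric neurons and glia between 863 and 1381. Of the innate lymphoid and NK markers, 1 of 6 was tested, Id2, and Ncr1, Eomes and Gata3 stood below the filter. No tested gene of these 8 marker lists had an unadjusted p under 0.05 in the cosine fit, where the 4 factors all did. In the test for any difference between times, Krt14 of the squamous list (adjusted p = 0.0103), Id2 (0.0329) and Uchl1 of the enteric neurons and glia (0.0448) passed, 3 genes of the 31 tested in these lists, where 17% of all genes passed. Across arrays the summed signals correlated with the 4 factors with r between -0.33 and 0.46. In bulk tissue fewer cells of a type and less RNA per cell cannot be told apart.

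Dbp, the activator with the widest swing, was low around lights on and high around lights off. With the probe set 1438211_s_at, its signal was 149, 152 and 588 in the 8am arrays, 1541, 863 and 725 in those of 12pm, 2824, 4255 and 3970 in those of 4pm, 4890, 4907 and 1568 in those of 8pm, 935, 729 and 611 in those of 12am, and 235, 307 and 239 in those of 4am. Every array at 4pm and 8pm lay above every array at the other 4 times. The 24 h cosine fitted with limma to log2(signal + 16) had an amplitude of 2.16 ± 0.19 (SE), which is 19.8-fold between peak and trough, and a peak 10.8 ± 0.3 h after lights on (limma adjusted p = 1.68e-05 over 12870 genes). In order of mean log2 signal the times ran 8am, 4am, 12am, 12pm, 8pm and 4pm. The arrays of 8am and 4am overlapped, as did those of 12am and 12pm and those of 8pm and 4pm, while the steps between these 3 pairs of times were free of overlap.

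The second Dbp probe set, 1418174_at, had its lowest mean at 4am and its highest at 8pm. Its signal was 164, 146 and 337 in the 8am arrays, 1414, 717 and 575 in those of 12pm, 2239, 1924 and 1909 in those of 4pm, 2351, 2977 and 1252 in those of 8pm, 669, 553 and 461 in those of 12am, and 100.2, 23.4 and 189 in those of 4am. The lowest value by far was that of 4am b, which in the other probe set had the highest of the 3 values at 4am. In the fit of all probe sets the amplitude was 2.24 ± 0.21 (SE) and the peak lay at 10.3 ± 0.4 h (limma adjusted p = 8.63e-05). Over the 18 arrays both Dbp probe sets correlated with r = 0.92, and with r = 0.99 once 4pm b, 4am a and 4am b were set aside.

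**Figure D1:**
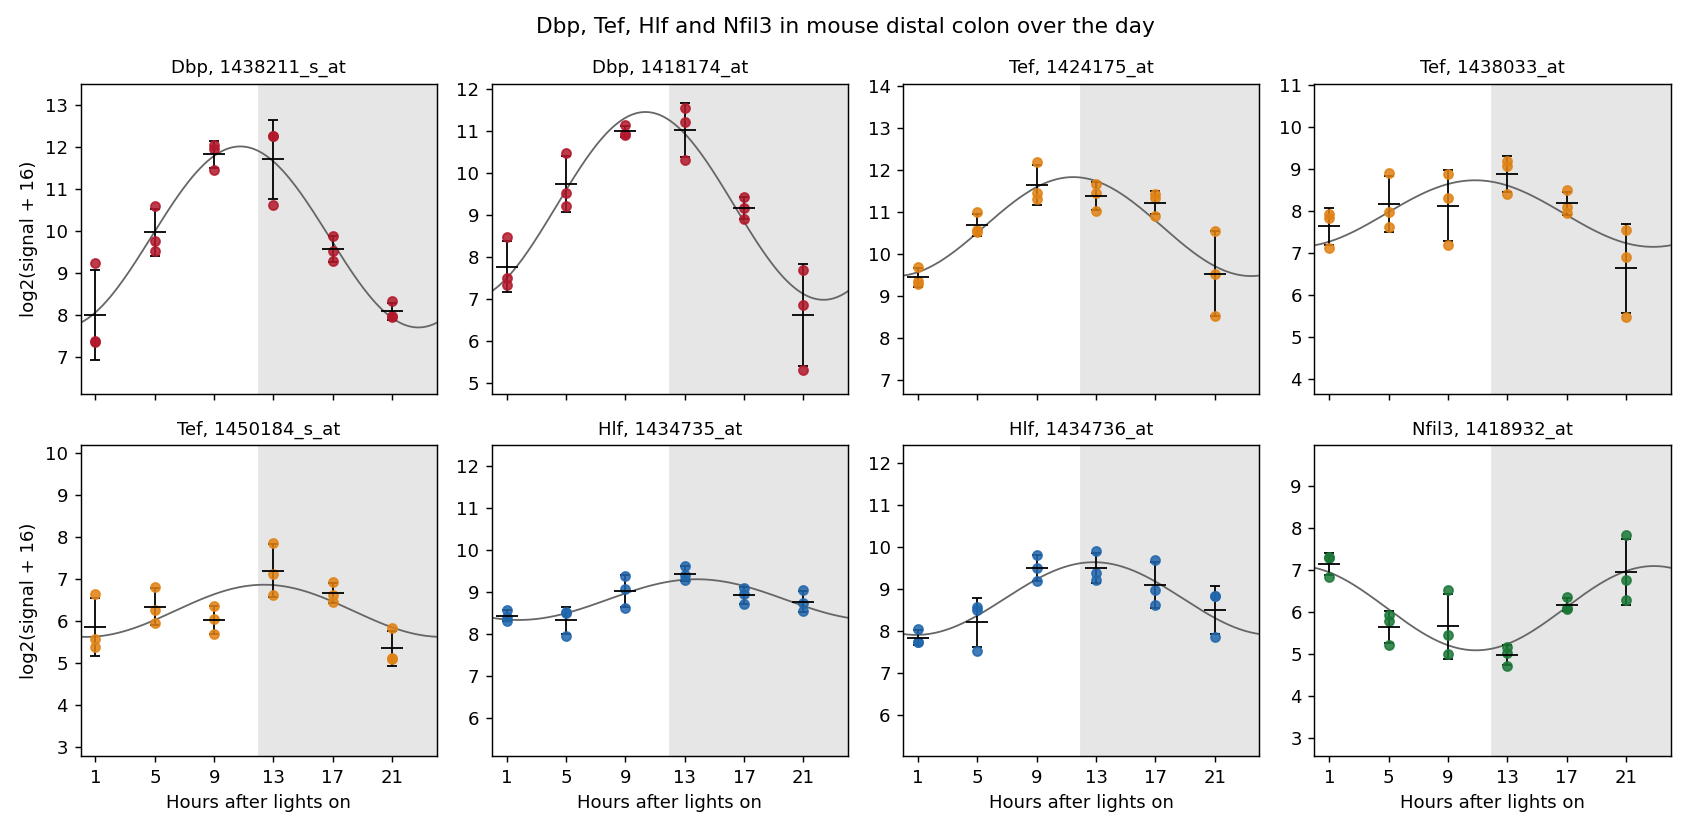
Signal of the 8 probe sets of Dbp, Tef, Hlf and Nfil3, as log2(signal + 16), against hours after lights on; coloured points are the 18 arrays, black bars the mean ± SD of the 3 arrays of a time, the grey line the fitted 24 h cosine and shading the dark phase. Each panel spans the same range of log2 units. Dbp swings most, with an amplitude of 2.16 and 2.24, and Nfil3 has its highest mean at 8am, where the means of the others are low.

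Tef, an activator of the same family, was also lowest at 8am and 4am. The probe set with the highest signal, 1424175_at, read 633, 602 and 811 in the 8am arrays, 2019, 1495 and 1452 in those of 12pm, 2499, 2748 and 4614 in those of 4pm, 2748, 3239 and 2046 in those of 8pm, 2720, 2527 and 1896 in those of 12am, and 350.3, 713 and 1465 in those of 4am. All 3 arrays at 8am lay below all arrays from 12pm to 12am, whereas 4am c reached the level of 12pm. Its cosine had an amplitude of 1.18 ± 0.17 (SE), 5.12-fold between peak and trough, with a peak at 11.5 ± 0.5 h (limma adjusted p = 0.0261, and 0.0409 over all probe sets). From the lowest mean to the highest the order was 8am, 4am, 12pm, 12am, 8pm and 4pm, and no pair of neighbours in it was free of overlap.

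The other Tef probe sets moved less. For 1438033_at the signal ranged between 28.6 in 4am a and 571 in 8pm a, and the cosine peaked at 10.8 ± 1.1 h with an amplitude of 0.79 ± 0.23. The dim probe set 1450184_s_at ranged between 17.9 and 216, and peaked at 12.4 ± 1.2 h with an amplitude of 0.62 ± 0.20. Neither passed in the fit of all probe sets (limma adjusted p = 0.999 for both, unadjusted p = 0.00931 and 0.0203). Both had their lowest mean at 4am and their highest at 8pm, with overlap between all neighbours in the order.

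Hlf, the third activator, had its highest values 1 h after lights off in one probe set and from 4pm to 8pm in the other. With 1434735_at the signal was 302, 366 and 324 in the 8am arrays, 353, 232 and 344 in those of 12pm, 374, 645 and 524 in those of 4pm, 663, 772 and 608 in those of 8pm, 403, 476 and 533 in those of 12am, and 512, 410.4 and 355 in those of 4am. All 3 arrays at 8pm lay above all arrays of every other time except 4pm b. The cosine amplitude was 0.48 ± 0.11 (SE), 1.96-fold between peak and trough, with a peak at 13.8 ± 0.8 h, and it did not pass (limma adjusted p = 0.532, unadjusted p = 0.000824).

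With 1434736_at, whose mean log2 signal of 8.78 was close to the 8.82 of the first probe set, the signal was 198, 249 and 199 in the 8am arrays, 366, 170.1 and 350 in those of 12pm, 708, 573 and 878 in those of 4pm, 577, 944 and 655 in those of 8pm, 813, 376 and 486 in those of 12am, and 215, 443 and 438 in those of 4am. All arrays at 8am lay below all arrays at 4pm, 8pm and 12am. This probe set had an amplitude of 0.87 ± 0.15 (SE), 3.32-fold between peak and trough, and a peak at 12.9 ± 0.7 h (limma adjusted p = 0.192 over all probe sets, unadjusted p = 4.68e-05). The mean of both Hlf probe sets, used in place of the brighter one for every gene, passed with an amplitude of 0.67 and an adjusted p of 0.0260, so the call for Hlf depends on which probe set stands for the gene. Neighbouring times overlapped throughout the order of both probe sets.

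Nfil3, the repressor, was highest around lights on and lowest just after lights off. Its signal was 98.1, 139 and 140.3 in the 8am arrays, 38.8, 21 and 44.9 in those of 12pm, 27.7, 15.9 and 74.7 in those of 4pm, 16.4, 9.99 and 19.7 in those of 8pm, 51.9, 64.7 and 50.9 in those of 12am, and 91.9, 61.8 and 209 in those of 4am. The 3 arrays at 8am lay above all arrays of every other time except 4am c, and the 8pm arrays below all arrays of every other time except 4pm b. In mean log2 signal it stood at percentile 20.6 of all probe sets, and no detection calls were used. Adding 16 before the logarithm compresses the ratios between signals as low as these. Whether the lowest values lay above background was not tested, so the size of the swing is uncertain.

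The Nfil3 cosine had an amplitude of 1.00 ± 0.19 (SE), 4.02-fold between peak and trough on the log2(signal + 16) scale, and a peak at 22.9 ± 0.7 h. It did not pass over all probe sets (limma adjusted p = 0.332, unadjusted p = 0.000103). With 1 or 64 added before the logarithm in place of 16 the amplitude was 1.35 or 0.59, and the adjusted p stayed above 0.05. From the lowest mean to the highest the times ran 8pm, 12pm, 4pm, 12am, 4am and 8am, and only the step between 8pm and 12pm was free of overlap.

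In all, 2 of the 3 genes tested at 1 probe set per gene passed the cosine test, Dbp and Tef, and 0.0389% of the 12870 genes did. By p-value they ranked 1 and 2 of all genes and Hlf ranked 18. Of the 8 probe sets 3 passed, both of Dbp and 1 of Tef, and these were the 3 that passed among all 45037 (0.00666%). At an unadjusted p under 0.05 all 8 probe sets of the 4 genes stood, against 3.35% of all probe sets. The 4 genes were chosen with earlier results of these data known. The median amplitude over all genes tested was 0.19 on the log2 scale, and its 99th percentile was 0.70.

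**Figure D2:**
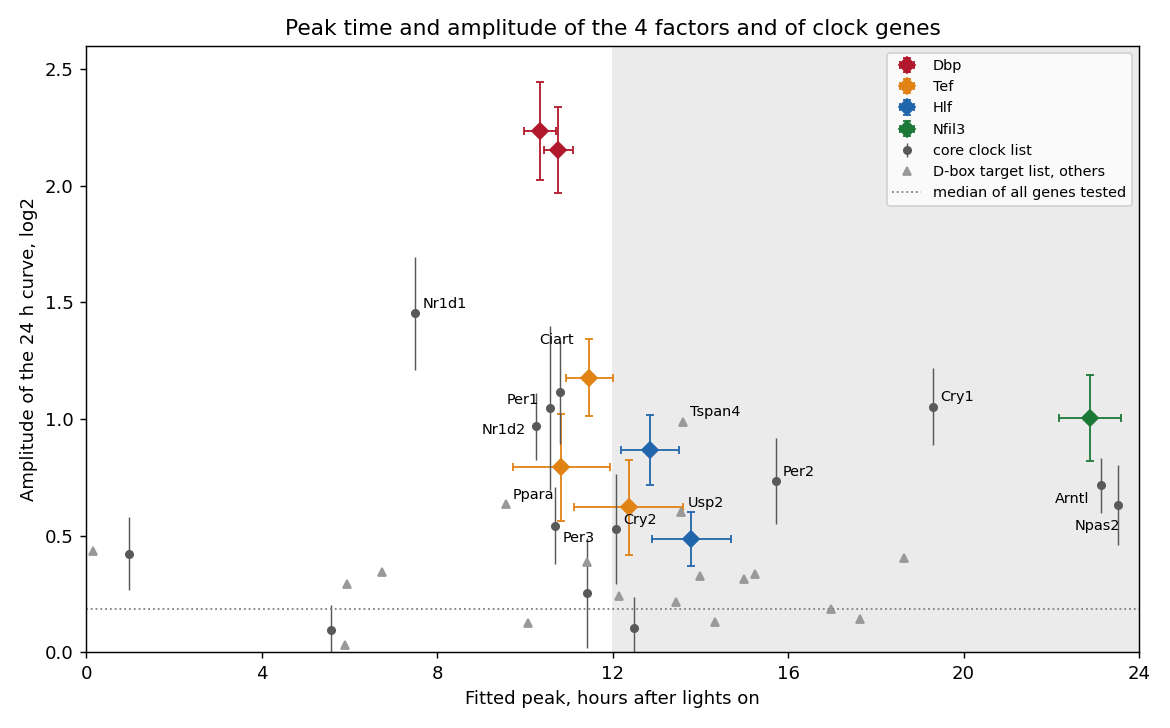
Amplitude of the 24 h cosine on the log2 scale against the fitted peak in hours after lights on, with the dark phase shaded. Diamonds are the 8 probe sets of the 4 genes with the SE of both values, circles the tested core clock genes with the SE of the amplitude and triangles the other tested genes of the D-box target list; the dotted line is the median of all genes tested, 0.19. Dbp, Tef and Hlf peak between 10.3 and 13.8 h and Nfil3 at 22.9 h, beside Arntl and Npas2.

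The fitted peak of Hlf came after that of Dbp. It lay 3.03 h later by their brighter probe sets (95% interval 1.42 to 4.65 h) and 2.10 h later with the other Hlf probe set (0.63 to 3.56 h). Tef peaked 0.70 h after Dbp, with an interval of -0.55 to 1.96 h that includes 0. Hlf minus Tef was 2.33 h (0.03 to 4.63 h) with 1434735_at and 1.39 h (-0.06 to 2.85 h) with 1434736_at. Dbp peaked 11.9 h after Nfil3 (10.2 to 13.5 h). Nfil3 peaked 9.10 h after Hlf 1434735_at (6.93 to 11.26 h), an interval that excludes 12 h, and 10.03 h after 1434736_at (7.68 to 12.38 h). Without 4pm b, 4am a and 4am b, Hlf peaked 2.93 h (1.08 to 4.78 h) and 2.06 h (0.29 to 3.83 h) after Dbp, and Tef 1.24 h after it (-0.01 to 2.50 h). Hlf minus Tef then was 1.69 h (-0.78 to 4.15 h) and 0.82 h (-0.83 to 2.47 h), so that both intervals included 0, and Nfil3 peaked 11.9 h after Dbp (10.2 to 13.7 h). Nfil3 then peaked 9.02 h (6.58 to 11.46 h) and 9.89 h (7.20 to 12.57 h) after the same Hlf probe sets. These intervals come from the residual covariance of each pair in the cosine fit and are not adjusted over the 28 pairs of probe sets.

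Over the 18 arrays all 21 pairs of probe sets among Dbp, Tef and Hlf correlated above 0, with r between 0.21 and 0.92. These include pairs of probe sets of the same gene, and the highest r was that of both Dbp probe sets with each other. Between different genes the highest was 0.85, of Dbp 1418174_at with Tef 1424175_at. All 7 pairs with Nfil3 correlated below 0, with r between -0.78 and -0.45. With 4pm b, 4am a and 4am b set aside the ranges were 0.45 to 0.99 and -0.82 to -0.42. The 0.99 was again that of both Dbp probe sets, and between different genes the highest was 0.87, of Dbp 1418174_at with Tef 1438033_at. These correlations are descriptions, since the probe sets share arrays, scaling and collection times.

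Whether the 6 times differed at all, whatever the shape, was asked with a limma fit of group means. All 3 genes tested passed, Dbp (adjusted p = 0.000478), Tef (0.00434) and Hlf (0.0290), as 17% of all genes did. In the fit of all probe sets 7 of the 8 passed, against 11.4% of all probe sets, among them Nfil3 (adjusted p = 0.0153) and both of Hlf (0.0420 and 0.0189). The exception was Tef 1438033_at (0.0584). The Hlf call was lost without 8am a (0.0604), 8am c (0.0625), 12pm b (0.0537), 8pm a (0.0668), 8pm b (0.0753) or 8pm c (0.0541).

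At 8am against 8pm, 1 h into the light against 1 h into the dark, Dbp was lower, and Tef and Hlf gave differences of the same sign and Nfil3 one of the opposite sign that did not pass. Dbp averaged 8.00 ± 1.07 log2 units at 8am and 11.72 ± 0.94 at 8pm (SD, n = 3 each), a difference of -3.72 ± 0.47 (SE) or 13.2-fold (limma adjusted p = 0.00552). It was the 1 gene that passed, 0.00777% of those tested. The second Dbp probe set also fell (-3.26 ± 0.49, adjusted p = 0.0304 over all probe sets), and with it 2 of the 8 probe sets passed, against 0.0111% of all probe sets. Without 8am c, the highest of the 3 arrays at 8am, the Dbp difference was -4.34 or 20.2-fold. This call of Dbp was lost without 8am a (adjusted p = 0.0571), 8am b (0.0610), 8pm a (0.0814) or 8pm b (0.0810).

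In log2 units Tef was 9.44 ± 0.23 at 8am and 11.37 ± 0.33 at 8pm, a difference of -1.94 ± 0.38 (adjusted p = 0.174). Hlf was 8.43 ± 0.13 and 9.44 ± 0.17 with the brighter probe set (difference -1.01 ± 0.24, adjusted p = 0.314), and 7.85 ± 0.17 and 9.50 ± 0.36 with the other (-1.66 ± 0.35, adjusted p = 0.250 over all probe sets). Nfil3 was 7.13 ± 0.26 at 8am and 4.96 ± 0.23 at 8pm, a difference of 2.17 ± 0.41 (adjusted p = 0.136 over all probe sets). In 6 of the 7 probe sets of Dbp, Tef and Hlf all arrays at 8am lay below all at 8pm, as in 8.38% of all probe sets, and for Nfil3 all lay above, as in 5.72%. With 4pm b, 4am a and 4am b set aside, which leaves both of these groups whole but changes the estimate of spread, Tef and Nfil3 passed (adjusted p = 0.00387 and 0.0453) and Hlf stood at 0.0639.

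At 12pm against 12am the 4 genes gave small differences. No probe set of theirs passed, against 0.00444% of all probe sets, and none of the 12870 genes did in limma (0%), with 8.11% at an unadjusted p under 0.05. Dbp was 9.97 ± 0.56 at 12pm and 9.58 ± 0.30 at 12am, a difference of 0.40 ± 0.47, and Tef 10.69 ± 0.26 and 11.21 ± 0.27 (-0.52 ± 0.38). For Hlf all 3 arrays at 12pm lay below all at 12am in both probe sets, by 0.59 ± 0.24 and 0.88 ± 0.35 log2 units, and for Nfil3 by 0.52 ± 0.41, an ordering shared by 11.9% of all probe sets. Adjusted p over all probe sets was 0.565 and 0.560 for Hlf and 0.751 for Nfil3.

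At 4pm against 4am, late in the light against late in the dark, Dbp was higher. It averaged 11.83 ± 0.32 at 4pm and 8.10 ± 0.20 at 4am, a difference of 3.73 ± 0.47 (SE) or 13.3-fold (limma adjusted p = 0.00263), and 0.0466% of all genes passed. The probe set 1418174_at gave 4.38 ± 0.49 or 20.8-fold (adjusted p = 0.00262 over all probe sets, where 0.00888% passed), and 3.72 or 13.2-fold without 4am b (0.00709). Tef was 11.64 ± 0.47 at 4pm and 9.52 ± 1.01 at 4am (2.12 ± 0.38, adjusted p = 0.0556), without overlap. Hlf differed by 0.24 ± 0.24 (adjusted p = 0.553), and by 0.99 ± 0.35 without overlap in its other probe set (0.327 over all probe sets). Nfil3 was 5.65 ± 0.77 at 4pm and 6.95 ± 0.78 at 4am, a difference of -1.30 ± 0.41 with overlap (0.300 over all probe sets). Over all probe sets 5.06% had every 4pm array above every 4am array, as 4 of the 8 here did.

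This comparison holds the 3 arrays of high Gapdh ratio, whose part in it was not tested beyond leaving them out. Without them 2 arrays stood against 1, whose spread was taken from the other times, and the Dbp difference was 3.72 (adjusted p = 0.146) and that of Tef 1.20 (0.484). The second Dbp probe set gave 3.34 or 10.1-fold (0.0743 over all probe sets). For Nfil3 the difference was -1.84 (0.403), and for Hlf it was 0.31 and 0.83 in its 2 probe sets (0.957 by gene for the brighter one). The cosine of Dbp then had an amplitude of 2.19 (adjusted p = 0.000483) and that of Tef 1.01 (0.0210). The amplitude was 1.95 (8.77e-05 over all probe sets) for the second Dbp probe set, 0.66 and 0.55 for the dimmer Tef probe sets, 0.49 and 0.87 for those of Hlf and 1.12 for Nfil3, and of these the second Dbp probe set alone passed. Leaving out 4am c, the 4am array with a low ratio, gave a Tef difference of 2.62 (adjusted p = 2.49e-05). The 4am group then held only 4am a and 4am b, and 4090 of the 12870 genes passed, against 6 with all arrays.

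**Figure D3:**
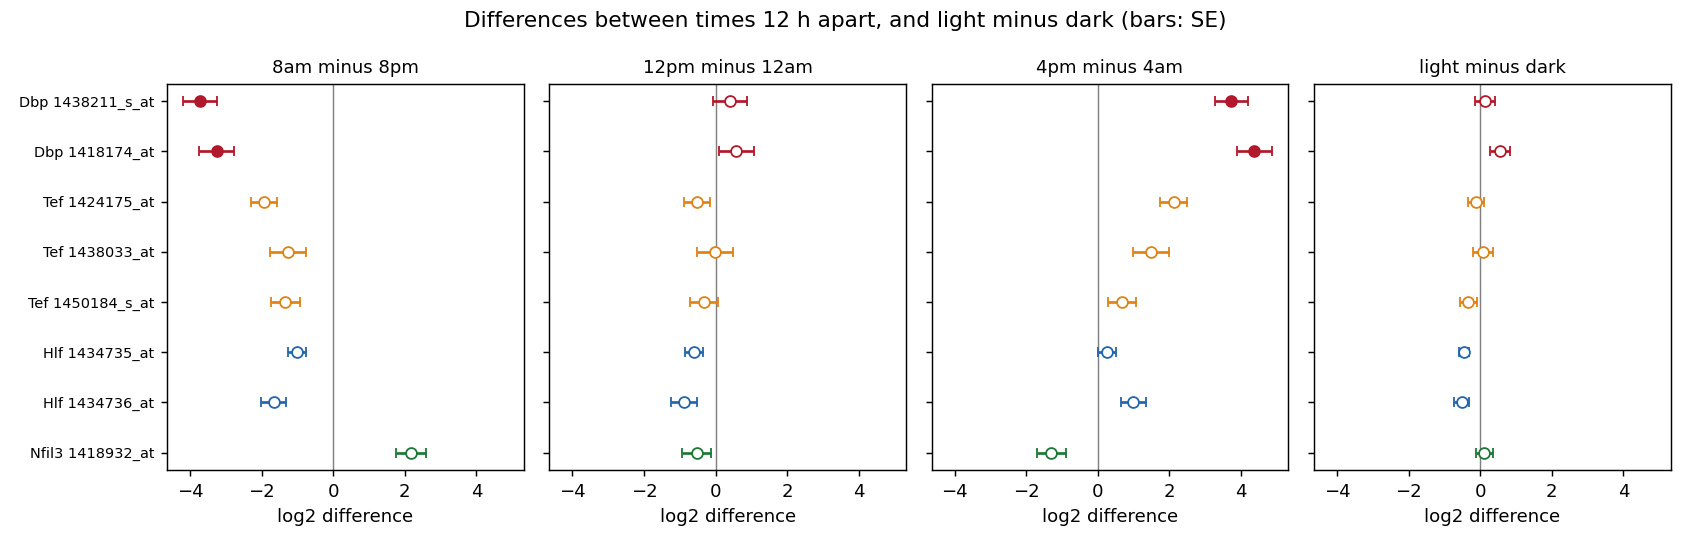
Differences in log2(signal + 16) between times 12 h apart, and of the 3 light times together minus the 3 dark times together, for the 8 probe sets; points are the fitted differences, bars the SE, and filled points have a limma adjusted p under 0.05 over all probe sets. Only Dbp is filled, at 8am minus 8pm and at 4pm minus 4am, and the signs at these contrasts are opposite.

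Light against dark as a whole gave no call. None of the 4 genes passed, nor did any of the 12870 genes in limma (0%), with 6.21% at an unadjusted p under 0.05. The differences were 0.14 ± 0.27 for Dbp, -0.11 ± 0.22 for Tef, -0.45 ± 0.14 for Hlf (adjusted p = 0.704) and 0.12 ± 0.23 for Nfil3 (SE, n = 9 each). The other probe sets gave 0.57 ± 0.28 for Dbp and -0.52 ± 0.20 for Hlf (limma adjusted p = 0.834 for both over all probe sets). For Tef they gave 0.08 ± 0.29 with 1438033_at and -0.33 ± 0.23 with 1450184_s_at. Tested jointly over the 3 contrasts of times 12 h apart, Dbp (limma adjusted p = 0.000549) and Tef (0.0187) passed among 0.0777% of all genes, Hlf stood at 0.259, and Nfil3 at 0.134 over all probe sets, where 0.0155% passed.

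Leaving out 1 array could end the Tef calls. The cosine call ended without 8am a (adjusted p = 0.0709), 8am b (0.0659), 12pm c (0.0542), 4pm a (0.0562), 8pm a (0.0547), 8pm b (0.0758) or 4am b (0.0820), with amplitudes between 1.14 and 1.21. The joint call was lost without 6 of these arrays, 12pm c being the exception, with adjusted p of at most 0.0768. With the mean of the kept Tef probe sets the cosine amplitude was 0.98 and the adjusted p 0.0881. Dbp kept its cosine call without each of the 18 arrays, with adjusted p between 2.88e-06 and 0.000137.

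**Figure D4:**
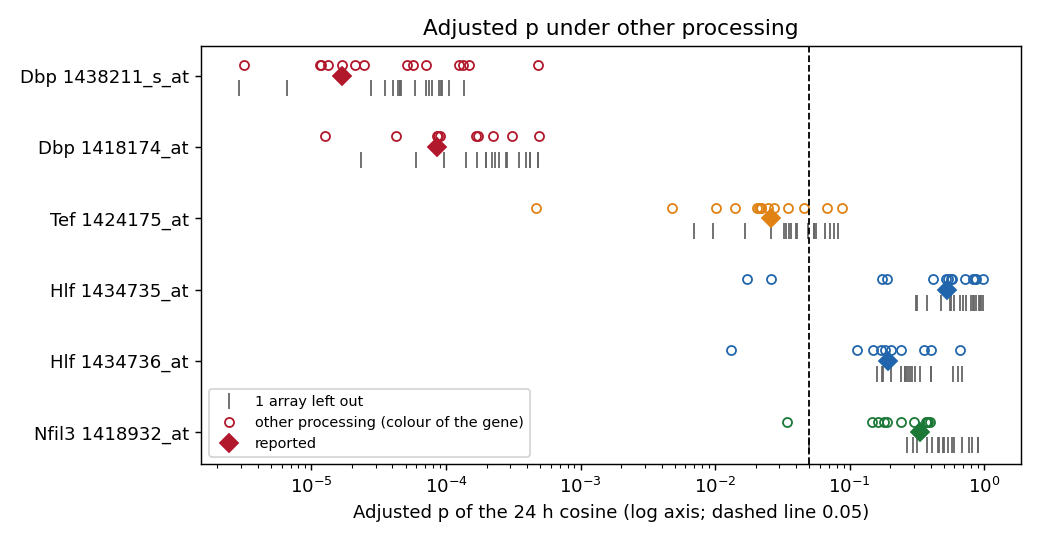
Adjusted p of the 24 h cosine on a log axis, with the threshold of 0.05 as a dashed line, for 6 probe sets; diamonds are the reported values, grey ticks the fits with 1 array left out and open circles the other alternatives. The rows of Dbp 1438211_s_at, Tef and Hlf 1434735_at come from fits with 1 probe set per gene and the others from fits of all probe sets; in the alternative that averages probe sets the value is that of the gene. Every Dbp value lies left of the line, while those of Tef fall on both sides.

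The regulators of the 4 genes were taken from a list of 16 core clock genes, of which 14 were tested. In the cosine fit 2 passed, Nr1d2 and Cry1, against 0.0389% of all genes, and 10 had an unadjusted p under 0.05, against 3.95%, with a median amplitude of 0.67 against 0.19 for all genes. This list too was chosen with earlier results of these data known, so its shares are descriptions. Nr1d2, known as a repressor of Nfil3, peaked at 10.3 h (0.97 ± 0.14 in amplitude, adjusted p = 0.0261), and its relative Nr1d1 at 7.50 h (1.45 ± 0.24, 0.0594). The activator Arntl peaked at 23.1 h with 0.72 ± 0.12 (0.0532) and its partner Npas2 at 23.5 h with 0.63 ± 0.17 (0.948), both close to the peak of Nfil3 at 22.9 h. Ciart, a repressor of Clock and Arntl, peaked at 10.8 h (1.11 ± 0.22, adjusted p = 0.300), as Dbp did. Any difference between times was found for 12 of the 14, against 17% of all genes. Besides Nr1d1, Nr1d2, Arntl, Npas2, Ciart, Cry1, Per2 and Per3, these were Clock (adjusted p = 0.0145), Cry2 (0.0471), Rora (0.0410) and Rorb (0.0476). The joint test over times 12 h apart was passed by Nr1d1 (0.0161), Nr1d2 (0.0281) and Cry1 (0.0488), against 0.0777% of all genes, and at 4pm against 4am Nr1d1 was higher (adjusted p = 0.0196).

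Reported targets of D-box factors, from studies of liver, kidney, brain and gut, made a list of 31, of which 27 had a probe set with 1 gene symbol and 24 were tested. Their median amplitude was 0.34, 9 had an unadjusted p under 0.05 in the cosine fit, which is 37.5% against 3.95% of all genes, and 1 passed, Cry1. The list was chosen with earlier results of these data known, so its shares here and below are descriptions and not a test of the list. Since 7 genes stand in both lists, the 18 tested ones outside the core clock were counted alone. Of these 4 had an unadjusted p under 0.05 and the median amplitude was 0.32. They were Tspan4, a tetraspanin (amplitude 0.99 ± 0.17, peak 13.6 h, adjusted p = 0.0655), Usp2, a deubiquitinating enzyme (0.60 ± 0.14, 13.6 h, 0.796), Pdxk, the pyridoxal kinase that makes the active form of vitamin B6 (0.33 ± 0.12, 14.0 h, 0.948), and Ddc, the enzyme that makes dopamine and serotonin (0.44 ± 0.12, 0.16 h, 0.948). The fitted peaks of Tspan4, Usp2 and Pdxk lay near those of Hlf and later than that of Dbp, and the peak of Ddc near that of Nfil3. None of these 4 cosines passed, and differences of their peaks from those of the factors were not tested.

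Among the clock genes with reported D-boxes, Per3, whose window above holds a pair of them, had an amplitude of 0.54 ± 0.17 and its peak at 10.7 h (adjusted p = 0.948). The period gene Per1 peaked at 10.6 h (1.05 ± 0.35, 0.948) and Per2 at 15.7 h (0.73 ± 0.18, 0.859). Cry1, which represses Clock and Arntl, peaked at 19.3 h (1.05 ± 0.16, 0.0367). The Cyp enzymes tested from the D-box target list had amplitudes of 0.13 ± 0.22 (Cyp3a11), 0.21 ± 0.14 (Cyp2c29), 0.32 ± 0.15 (Cyp7a1) and 0.34 ± 0.18 (Cyp2b10). They were dim, with a mean log2 signal between 7.45 and 7.61 and the filter at 7.10. The gut transporters had 0.13 ± 0.11 (Abcb1a, a drug efflux pump) and 0.18 ± 0.11 (Slc15a1, a peptide transporter). Adjusted p was at least 0.948 for all of these enzymes and transporters. Any difference between times was found for 11 of the 24, against 17% of all genes, among them outside the core clock Tspan4 (0.00481), Usp2 (0.0186), Acot4 (0.0197), Acot2 (0.0319), Ddc (0.0335) and Cyp2b10 (0.0371). Tspan4 also passed the joint test over times 12 h apart (0.0187).

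Genes that are lower without Nfil3 in small-intestinal epithelium had no call in any test. Their summed signal ranged between 3383 in 4pm a and 17059 in 4am a, the array that also had the highest adipose sum (2697). In bulk tissue the missing calls therefore cannot speak for the epithelium alone. Of the 4, Scd1, a fatty acid desaturase, had the lowest p, with a peak at 20.3 h and an amplitude of 0.41 ± 0.15 (unadjusted p = 0.0335, adjusted p = 0.948). The fatty acid carrier Cd36 had an amplitude of 0.09 ± 0.25. The C/EBP factors, bZIP relatives that bind related elements, also had no cosine call, with 0 of 5 tested past the limma threshold and Cebpd alone at an unadjusted p under 0.05 (amplitude 0.37 ± 0.13, peak 9.80 h, unadjusted p = 0.0359). The stress-induced Ddit3 differed between times (adjusted p = 0.0427).

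The genes most like each factor were taken as the highest Pearson r over the 18 arrays among all genes tested, as a description. For Dbp they were Nr1d2 (r = 0.87), the amino acid transporter Slc36a1 (0.86), Tef (0.85), Ciart (0.79) and the carbonyl reductase Cbr3 (0.76). The lowest were Arntl (-0.84), Tppp (-0.80) and Tmem139 (-0.78). For Tef they were Castor1, an arginine sensor (0.85), Dbp (0.85), Zfp827 (0.84), Sugp1 (0.84) and the triglyceride enzyme Dgat2 (0.83), with the tight junction protein Cldn8 (-0.86), the centriole kinase Plk4 (-0.86) and Ddc (-0.84) at the other end.

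For Hlf they were Usp2 (r = 0.87), the kinase Sgk1 (0.77), Per2 (0.77), Lefty1 (0.76) and Tesk2 (0.76), and the lowest were Cpm (-0.77), the kinetochore protein Knl1 (-0.77) and Spon2 (-0.76). Nfil3 was most like Shcbp1 (0.76), Arntl (0.74), Tppp (0.73), B4galt7 (0.70) and H2-T3 (0.65). Its lowest r of all genes was that with Nr1d2 (-0.81), followed by Dbp (-0.78), and Med18 stood at -0.74. Without the 3 arrays of highest Gapdh ratio, Nr1d2 was still the gene with the lowest r to Nfil3 (-0.83) and Shcbp1 the one with the highest (0.80). Zfp827 and Sugp1 then ranked 44 and 37 for Tef and Cbr3 ranked 43 for Dbp. For Hlf, Tesk2 ranked 2, Usp2 3, Per2 9, Sgk1 18 and Lefty1 24. At its low end Knl1 ranked 16, Spon2 27 and Cpm 35. For Nfil3, H2-T3 ranked 11 and B4galt7 18, and at the low end for Tef, Ddc ranked 14.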

How the data were processed

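The deposited table holds a signal intensity per probe set on a linear scale, which the authors made with GCOS, the Affymetrix array software named without a version in the submitters' processing notes. The mean signal was 500 in every array once 2% of probe sets were trimmed at either end, so each array carries 1 scaling factor, which was kept. Background values and detection calls were not used here, and the number of arrays limits the precision. Probe sets were named from the platform annotation: 34945 carried 1 gene symbol, 932 several and 9160 were not listed, and 64 controls were set apart.

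Values were taken as log2(signal + 16). For the fit per gene, probe sets with a mean at or above the 40th percentile (7.10) were kept (27022) and the one with the highest mean stood for a gene (12870 genes). A second fit took all 45037 probe sets. limma 3.58.1 in R 4.3.3 with a trend on the mean fitted a 24 h cosine and 6 group means with 4 contrasts. Adjusted p is Benjamini-Hochberg over everything in a fit, two-sided, with a threshold of 0.05, and the fits were tested on simulated data. SE of the amplitude and peak come from the delta method. Genes named besides the 4 were, per list, those past a threshold or up to 4 with the lowest p, single values named as examples, and per factor the 5 highest and 3 lowest correlations, without clone names. A few list members were named for their role after their values were seen. The 4 genes and all lists were chosen with earlier results of these data known. Same-letter arrays of different times did not deviate together (mean r = -0.01, 45 pairs), so letters were not taken as pairs.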

Additional observations from a re-analysis of the deposited data

How the results depend on the processing

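Alternatives changed the added constant, normalization, filter, probe set per gene, moderation, array weights, the replicate block and the curve, or left out arrays. Dbp passed the cosine test in 32 of 32 alternatives, Tef in 23 of 32, Hlf in 2 of 32 and Nfil3 in 1 of 29, with peaks between 10.6 and 10.9 h, 11.2 and 12.0 h, 13.2 and 14.9 h, and 22.6 and 23.3 h. Values below are limma adjusted p, and the cause of a change was not tested.

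For Tef, the cosine gave 0.0881 with the mean of the kept probe sets, and the joint test 0.108. With the replicate block the Tef cosine stood at 0.0683, and the block changed no other call of the 4 genes. At 4pm minus 4am Tef passed with 64 added (0.0370), quantile normalization (0.0407), equal array medians (0.0497), robust moderation (0.0460) and array weights (0.00114), and at 8am minus 8pm with array weights (6.03e-05) and without the 3 arrays of highest Gapdh ratio (0.00387), where Dbp lost 4pm minus 4am (0.146). Hlf passed the cosine and the joint test with the mean of its probe sets (0.0260 and 0.0296). With array weights Hlf passed the cosine (0.0173), 8am minus 8pm (0.00112), light minus dark (0.00869) and the joint test (0.00134), and at 4pm minus 4am its difference changed sign (0.848). Nfil3 passed the cosine (0.0342), 8am minus 8pm (0.00167) and the joint test (0.00656) with array weights. The joint test was also passed by Nfil3 with quantile normalization (0.0430) and equal medians (0.0420), and 8am minus 8pm with equal medians (0.0397). Without the 3 arrays Nfil3 passed 8am minus 8pm (0.0453) and the joint test (0.0451), and its light minus dark difference changed sign (0.993).

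Leaving out 1 array gave, from lowest to highest, 0.00702 to 0.0820 for the Tef cosine, 2.59e-05 to 0.0768 for its joint test, 0.0202 to 1.000 at 8am minus 8pm, 2.49e-05 to 0.237 at 4pm minus 4am and 0.769 to 0.982 for light minus dark. For Dbp it gave 0.000246 to 0.0814 at 8am minus 8pm and 0.848 to 0.986 for light minus dark, for Hlf 0.00626 to 0.0753 for any difference, 0.0356 to 0.955 for light minus dark and 0.0114 to 0.574 jointly, and for Nfil3 0.626 to 0.999 for light minus dark and 0.00435 to 0.398 jointly. The light minus dark difference changed sign for Dbp without 8am c (0.961) or 8pm c (0.975), for Tef without 4am c (0.883) and for Nfil3 without 4pm c (0.983).

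Over all genes the cosine called 5, between 1 and 8 with 1 array left out and 120 with array weights. Any difference between times was called for 2183 genes, for 6942 without 4am c, 792 without 8am c and 8974 with array weights. The joint test called 10, with 2515 without 4am c and 3831 with weights, and 4pm minus 4am called 6, with 4090 and 3275. Light minus dark called 0, with 955 and 1942, 12pm minus 12am 0, with 3 and 432, and 8am minus 8pm 1, with 3 and 286, so calls under array weights or without 4am c stand against a larger background. Apart from array weights and from leaving out 1 array, the alternatives called up to 18 genes at 8am minus 8pm.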
